A study of Homo sapiens with 13 samples.

Results

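YAP1, its paralog WWTR1 (the protein TAZ), the DNA-binding TEAD factors TEAD1, TEAD2, TEAD3 and TEAD4, and the target genes CTGF, CYR61, ANKRD1 and AMOTL2 were followed in human colon tumour cells after knockdown of SOX9 or Y14. These 10 genes were chosen by symbol, and all 10 were found among the 23886 gene symbols of each deposited table. YAP and TAZ are coactivators that do not bind DNA themselves. When the Hippo kinases phosphorylate them they are held in the cytoplasm or degraded, and otherwise they enter the nucleus and activate transcription with a TEAD factor. In the intestinal epithelium the pathway is known for its part in regeneration and in tumour growth, and CTGF, CYR61 and ANKRD1 are the transcripts most often read as a measure of YAP and TAZ activity.

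Polyadenylated RNA was sequenced from 13 samples of DLD-1, an established line from a Dukes' type C colorectal adenocarcinoma. Every sample had been transfected with 50 nM of small interfering RNA (siRNA) and was harvested after 72 h. Experiments 1 and 2 set 4 samples with an siRNA against SOX9 (siSOX9) against 3 with a control siRNA (siCtrl), with 1 sample of each kind in experiment 2. Experiment 3 set 4 samples with an siRNA against Y14 (siY14), from 2 siRNAs numbered 9 and 10, against 2 with siCtrl. SOX9 is a transcription factor of the crypt base, and Y14, which RBM8A encodes, belongs to the core of the complex that marks exon junctions on spliced mRNA. The labels do not say whether samples came from separate cultures, so p-values here reflect sample-to-sample spread that may be technical.

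The authors' deposited tables give a mean normalised read count for each arm, with both Y14 siRNAs in 1 arm. Values of single libraries were recovered from the digits of these means. The recovered libraries carry no sample name, so letters order them by depth within each arm, a being the deepest. Libraries of the siSOX9 table held an estimated 24.8 to 184.1 M reads each, and those of the siY14 table held 49.5 to 71.6 M. Of the 10 genes, 8 were recovered in every library, while the knockdown arms of YAP1 and TEAD1 have their deposited mean alone. In the siSOX9 table, library a of siCtrl and library a of siSOX9 stood apart from the rest in depth and deviated together from their arm means, with r = 0.901 across 8995 genes. In the siY14 table, libraries a and c of siY14 deviated together (r = 0.922 across 9399 genes), and so did b and d. The labels put 1 sample of each arm in experiment 2 and 2 samples on each Y14 siRNA, but no source used here says which siRNA or experiment a recovered library had. In the authors' deposited tables SOX9 went from 24468 to 9067 normalised read counts under siSOX9 (log2 fold change -1.43, adjusted p = 1.4e-04), while RBM8A is listed at 0 and checks nothing. Of the 8 epithelial markers, 7 had a mean of at least 10 in both comparisons. The exception was CDX1, at 2.83 normalised read counts in siCtrl of experiments 1 and 2 and 0.637 in siCtrl of experiment 3. VIL1 (villin) was lower under siSOX9 in the authors' deposited table (log2 fold change -1.19, adjusted p = 5.84e-08), and VIL1 (-0.57, adjusted p = 0.0187) and CDH1 (E-cadherin, -1.21, adjusted p = 0.0282) were lower under siY14. The summed siCtrl means of fibroblast, endothelial and immune markers lay between 31.7 and 137.4 normalised read counts against at least 347365 for the epithelial list. Of the 6 fibroblast markers, 4 had reads in the siSOX9 comparison. Of these, 3 passed the authors' threshold under siSOX9, against 3.47% of all genes with reads. COL1A1 (34.1 to 82.6 normalised read counts) and COL3A1 (0.647 to 11.9) were higher, and PDGFRB (102.7 to 55.8) was lower. The list summed to 137.4 in siCtrl and 151.0 in siSOX9. The part of the epithelial or the fibroblast list in the results was not tested. In bulk RNA, fewer cells that express a gene and less RNA per cell cannot be told apart.

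TEAD factors bind the letters GGAATG, or CATTCC when read on the other strand. RefSeq (GRCh38.p14) gave a window for 7 of the 10 genes (not for CYR61, TEAD1 and TEAD4), and the 250 bases before each annotated start were searched on both strands. The windows of CTGF, ANKRD1 and AMOTL2 are printed because they are target genes whose windows hold these letters, on the strand of the gene and with each match in capitals.
CTGF, listed as CCN2, chr6:131951373-131951622, minus strand: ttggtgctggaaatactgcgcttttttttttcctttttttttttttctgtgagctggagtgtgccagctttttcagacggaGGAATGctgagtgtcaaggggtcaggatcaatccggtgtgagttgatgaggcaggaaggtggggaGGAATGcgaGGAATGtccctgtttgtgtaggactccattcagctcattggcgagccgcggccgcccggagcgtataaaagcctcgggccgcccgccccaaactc
ANKRD1, chr10:90921088-90921337, minus strand: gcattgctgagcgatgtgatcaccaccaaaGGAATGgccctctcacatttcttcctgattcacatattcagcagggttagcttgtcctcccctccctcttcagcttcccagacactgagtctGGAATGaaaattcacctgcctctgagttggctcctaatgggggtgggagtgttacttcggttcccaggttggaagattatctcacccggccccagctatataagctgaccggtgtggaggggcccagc
AMOTL2, second annotated start, chr3:134374448-134374697, minus strand: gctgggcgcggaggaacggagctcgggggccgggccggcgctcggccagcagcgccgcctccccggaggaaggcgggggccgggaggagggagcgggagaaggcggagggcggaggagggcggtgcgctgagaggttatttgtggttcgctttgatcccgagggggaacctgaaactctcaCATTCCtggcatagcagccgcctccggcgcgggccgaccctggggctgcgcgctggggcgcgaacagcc
CTGF held 3 matches, whose first bases lie at -169, -104 and -95 from the start, and ANKRD1 held 2, at -220 and -128. YAP1 had 1 match at -162, and AMOTL2 had 1 at -69 of its second start and 0 at its first. Among all 35116 windows of that length, 11.9% held at least 1 match, 0.940% at least 2 and 0.0826% at least 3. The windows of WWTR1, TEAD2 and TEAD3 held 0. SOX factors bind ACAAAG as well as ACAATG and the variant ACAATA, and one of these occurred in both windows of WWTR1 and in 1 of the 2 of TEAD2, against 25.8% of all windows. TGANTCA, the AP-1 letters, occurred once in ANKRD1, at -195, against 6.57% of all windows. No match overlapped another. A match is a description of these letters, not a bound site.

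**Figure D1:**
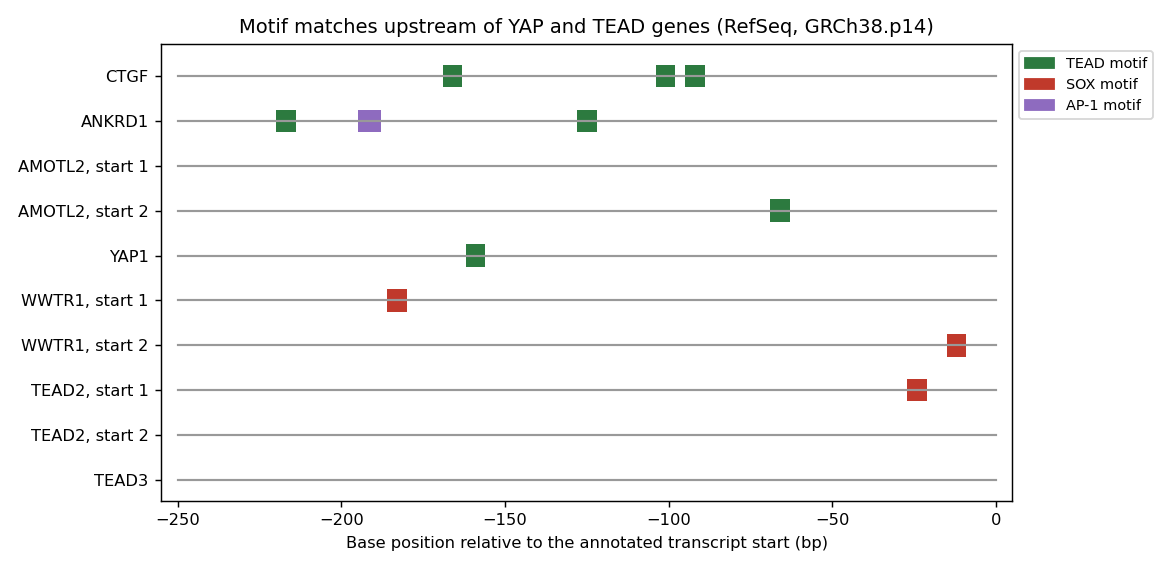
Matches to the TEAD, SOX and AP-1 letters in the 250 bases before each annotated start, plotted by distance from the start in bases. CTGF has 3 TEAD matches and ANKRD1 has 2, with 1 AP-1 match between those of ANKRD1, and no other window shown has more than 1 match of any kind.

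Which of these genes the cells expressed most was read from siCtrl levels per kilobase of exon (the union of exons in GENCODE v29). In siCtrl of experiments 1 and 2, YAP1 had the highest level, at 1640 normalised read counts per kilobase, and WWTR1 had 50.4, a ratio of 32.5 in favour of YAP1. The order below YAP1 was TEAD4 at 1379, AMOTL2 at 1048, TEAD1 at 942, TEAD3 at 678, CYR61 at 675, TEAD2 at 549, CTGF at 84.3, WWTR1 at 50.4 and ANKRD1 at 41.3. The 3 libraries of AMOTL2 (1002 to 1094) and TEAD1 (860 to 1060) overlapped, and so did those of TEAD3 (546 to 761), CYR61 (599 to 730) and TEAD2 (436 to 657). The other neighbours in the order did not overlap. All 4 TEAD factors were thus transcribed, with TEAD4 and TEAD1 above TEAD3 and TEAD2 per kilobase. Orders by this measure depend on the exon lengths, such as 9270 bases for TEAD1 and 1805 for TEAD4. Before division by length, TEAD1 had 8730 normalised read counts and TEAD4 had 2488. Which transcripts the cells used was not tested.

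In siCtrl of experiment 3 the order differed. YAP1 was again highest, at 3220 normalised read counts per kilobase, and exceeded WWTR1 by a ratio of 43.5. CYR61 followed at 2835, TEAD1 at 2019, AMOTL2 at 1366, TEAD4 at 1234, TEAD3 at 521, TEAD2 at 415, CTGF at 368, ANKRD1 at 231 and WWTR1 at 74.0. No neighbours overlapped between the 2 libraries. WWTR1, rather than ANKRD1, was lowest here. The tables were normalised separately, and each order holds within its own table.

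The first comparison asked how these transcripts differed between siSOX9 and siCtrl. ANKRD1, a nuclear ankyrin-repeat protein and a direct YAP target, fell to its siCtrl level times 0.517, while CTGF and CYR61, secreted matricellular proteins of the CCN family, had higher means under siSOX9. The coactivators and TEAD factors had log2 fold changes between -0.27 and 0.30. By the authors' test 1 of the 10 genes passed the threshold, an adjusted p under 0.05, against 3.47% of all genes with reads. The deposited log2 fold changes of the 10 genes had a median of 0.00147, against 0.0129 over the 13649 genes with a mean of at least 10.

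ANKRD1 had 78.3, 77.6 and 89.3 normalised read counts in the siCtrl libraries a to c. It had 35.2, 32.1, 53.9 and 47.7 in the siSOX9 libraries a to d. All 4 siSOX9 libraries lay below all 3 siCtrl libraries. By the authors' deposited table ANKRD1 had a log2 fold change of -0.95 with p = 8.18e-04 and adjusted p = 0.0281. The limma-voom model of the recovered reads, fitted across all recovered genes, gave -1.04 ± 0.19 (SE) with adjusted p = 0.00659. The counts behind ANKRD1 were low, from 23 to 270 reads per library. Its adjusted p in that model stayed between 0.00928 and 0.0284 when any 1 library was left out.

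CTGF, which shares TEAD letters with ANKRD1 in the windows printed above, lay on the other side of siCtrl. It had 215.8, 166.1 and 209.7 normalised read counts in siCtrl and 274.0, 249.5, 318.4 and 348.1 in siSOX9. The arms did not overlap. The authors' deposited table gives CTGF a log2 fold change of 0.59 with p = 0.0444, which did not pass after adjustment (adjusted p = 0.461). The limma-voom model gave 0.51 ± 0.15 (SE) with adjusted p = 0.0454. That call was lost without any 1 library other than siSOX9 a, with adjusted p up to 0.122.

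CYR61 had 1372, 1596 and 1671 normalised read counts in siCtrl and 1659, 2186, 2628 and 2721 in siSOX9. Only the deepest siSOX9 library, at 1659, lay within the siCtrl range. The authors' deposited table gives CYR61 a log2 fold change of 0.57 with adjusted p = 0.873, and the limma-voom model gave 0.51 ± 0.18 (SE) with adjusted p = 0.0968. Neither passed. Without library a of siSOX9 the limma-voom estimate was 0.73 with adjusted p = 0.00202.

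AMOTL2, an angiomotin-like protein that binds YAP and is itself a target, had 4791, 5002 and 5231 normalised read counts in siCtrl and 4295, 5058, 5584 and 5626 in siSOX9. The siSOX9 libraries lay on both sides of siCtrl. The log2 fold change in the authors' deposited table was 0.04 (adjusted p = 1).

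The coactivators came next. YAP1 had 10493, 8615 and 8583 normalised read counts in siCtrl, with a mean of 9231, and a siSOX9 mean of 11366. Its log2 fold change in the authors' deposited table was 0.30 (adjusted p = 0.716). WWTR1 had 251.8, 261.5 and 298.9 in siCtrl and 272.9, 255.7, 261.2 and 267.3 in siSOX9, with every siSOX9 library inside the siCtrl range. The log2 fold change of WWTR1 was -0.03 in the authors' deposited table (adjusted p = 1).

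None of the 4 TEAD factors passed under siSOX9 in the authors' deposited table. TEAD1 had 9825, 7972 and 8392 normalised read counts in siCtrl, with a mean of 8730, and a siSOX9 mean of 8023. TEAD2 had 1172, 1764 and 1488 in siCtrl and 1274, 1852, 1641 and 1550 in siSOX9. TEAD3 had 1664, 2318 and 2215 in siCtrl and 1390, 2001, 1786 and 1654 in siSOX9. In TEAD2 and TEAD3 the deepest library of each arm was the lowest, and the arms overlapped. TEAD4 had 2256, 2496 and 2713 in siCtrl and 1804, 2367, 2310 and 2464 in siSOX9, with the lowest value again in library a of each arm. In the authors' deposited table the log2 fold changes were -0.12 for TEAD1, 0.10 for TEAD2, -0.27 for TEAD3 and -0.15 for TEAD4, with adjusted p from 0.959 to 1.

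**Figure D2:**
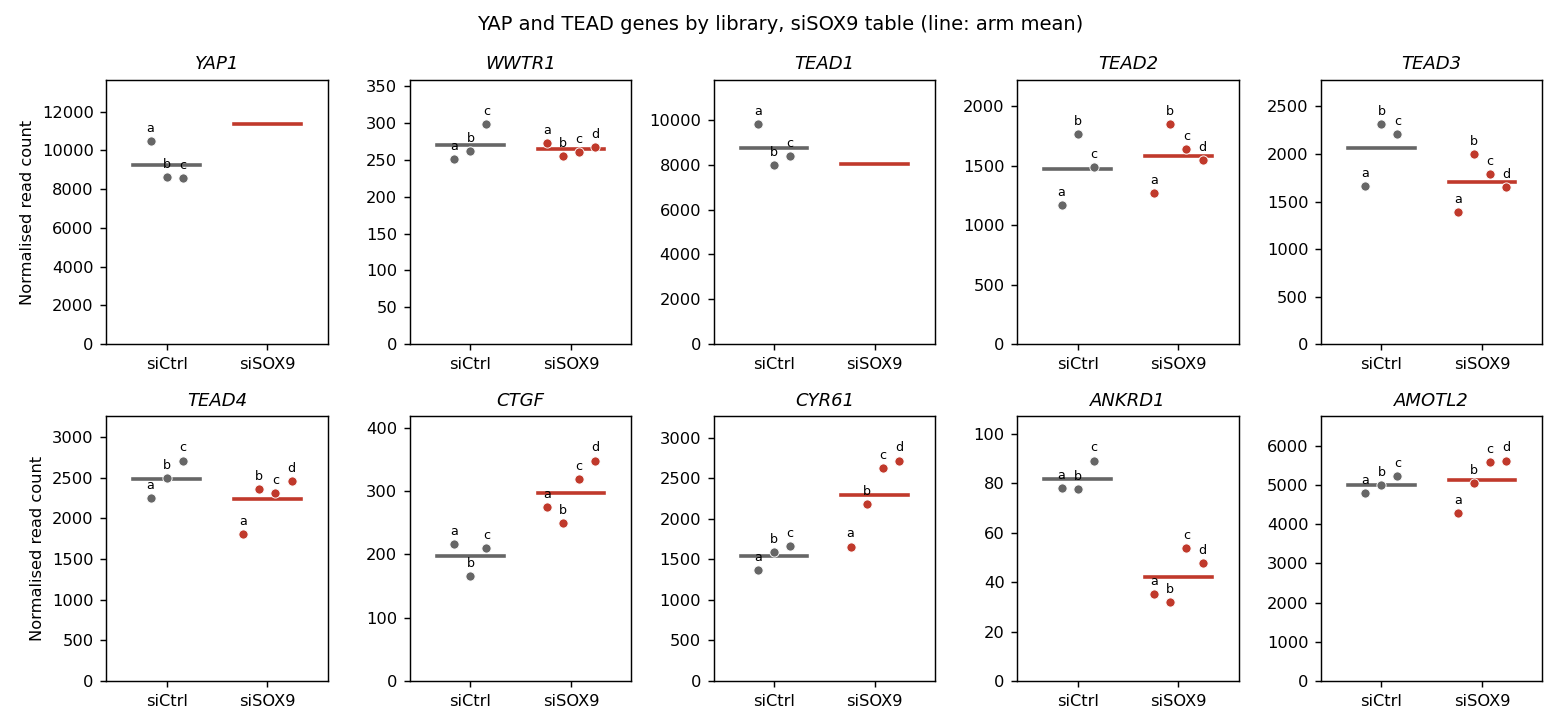
Normalised read counts of the 10 genes in the siCtrl (grey) and siSOX9 (red) arms, with 1 point per recovered library, lettered by depth, and a line at the deposited arm mean; each vertical axis starts at 0. ANKRD1 lies between 77.6 and 89.3 in siCtrl and between 32.1 and 53.9 in siSOX9, CTGF does not overlap between arms in the other direction, and the siSOX9 points of YAP1 and TEAD1 were not recovered.

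In the limma-voom model 2 of the 8 recovered genes passed under siSOX9 (ANKRD1 and CTGF), against 16% of all genes tested. The same 2 genes had arms that did not overlap, against 27.8% of all genes. The exact two-sided permutation p of each was 0.0571, the smallest that 3 libraries against 4 allow, so no single gene could reach 0.05 in that test.

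Since the deepest library of each arm stood apart, the arms were also compared within depth. Between the 2 deepest libraries, ANKRD1 had 78.3 in siCtrl and 35.2 in siSOX9, CTGF 215.8 and 274.0, and CYR61 1372 and 1659. Among the shallower libraries, ANKRD1 had at least 77.6 in siCtrl and at most 53.9 in siSOX9, CTGF at most 209.7 and at least 249.5, and CYR61 at most 1671 and at least 2186. These 3 genes had the same direction in both sets of libraries. TEAD3 did as well, with 1664 and 1390 in the deepest pair and at least 2215 against at most 2001 in the others. TEAD4 had 2256 and 1804 in the deepest pair and at least 2496 against at most 2464 in the others. In all, 5 of the 8 recovered genes had 1 direction in the deepest pair and in the shallower libraries, the latter without overlap, as did 49.6% of all genes, so that count is near the background. The deepest set holds 1 library per arm and has no spread of its own.

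With depth class as a term of the limma-voom model, a choice made after the data had been seen, 5 of the 8 genes passed. In that model 48.4% of all genes tested passed, so 5 of 8 is not far from that share. The estimates were -1.07 for ANKRD1, 0.47 for CTGF, 0.45 for CYR61, -0.29 for TEAD3 and -0.22 for TEAD4. Without the deepest library of each arm 4 of them passed, against 31.4% of all genes tested, TEAD4 being the exception with -0.13 (adjusted p = 0.184).

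The second comparison asked how the same transcripts differed between siY14 and siCtrl. TEAD1 fell to its siCtrl level times 0.665 and was the 1 gene of 10 that passed by the authors' test, against 9.16% of all genes with reads. TEAD4 had a higher mean in siY14, and CTGF, CYR61, ANKRD1 and YAP1 had lower means, with log2 fold changes between -0.28 and -0.20. The deposited log2 fold changes of the 10 genes had a median of -0.13, against -0.00122 over the 13444 genes with a mean of at least 10.

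TEAD1 had 18840 and 18590 normalised read counts in the siCtrl libraries a and b, a mean of 18715, and a siY14 mean of 12441. The recovered siCtrl libraries had an SD of 176 around that mean (n = 2), which can be too small at so high a mean. The spread of the siY14 libraries is not known. The authors' deposited table gives TEAD1 a log2 fold change of -0.59 with p = 3.7e-04 and adjusted p = 0.0099. Its siY14 reads were not recovered, so the call rests on the authors' test alone. That test pooled the samples of both Y14 siRNAs, and the siY14 libraries recovered for other genes deviated in pairs. Whether the libraries of a pair are independent samples is not known.

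TEAD4 had 2197 and 2256 normalised read counts in siCtrl and 2740, 2976, 2731 and 3049 in siY14 libraries a to d. All 4 siY14 libraries lay above both siCtrl libraries. The authors' deposited table gives TEAD4 a log2 fold change of 0.37 with p = 0.0369 and adjusted p = 0.184, which did not pass. The limma-voom model gave 0.37 ± 0.07 (SE) with adjusted p = 0.0199. With each pair of siY14 libraries that deviated together summed to 1 library, the estimate was 0.37 ± 0.10 (SE) with adjusted p = 0.145, and without siCtrl a it was 0.35 with adjusted p = 0.205.

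TEAD2 and TEAD3 had the siY14 libraries on 2 levels. TEAD2 had 1168 and 1064 normalised read counts in siCtrl and 1113, 1778, 1187 and 1812 in siY14. TEAD3 had 1581 and 1593 in siCtrl and 1506, 2152, 1468 and 2238 in siY14. In both genes libraries b and d lay above siCtrl, while a and c lay near the siCtrl level. By the authors' deposited table TEAD2 had a log2 fold change of 0.40 (adjusted p = 0.551) and TEAD3 of 0.21 (adjusted p = 0.762).

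ANKRD1 had the opposite order of the same libraries. It had 480.4 and 432.0 normalised read counts in siCtrl and 497.1, 270.5, 516.5 and 294.3 in siY14. Libraries a and c lay above both siCtrl libraries, and b and d lay below both. Averaged over the arm, the log2 fold change of ANKRD1 is -0.21 by the authors' deposited table (adjusted p = 0.83). CYR61 had 6501 and 6481 in siCtrl and 6127, 5002, 6297 and 4940 in siY14. All 4 lay below siCtrl, b and d further than a and c, and the log2 fold change of CYR61 in the authors' deposited table was -0.22 (adjusted p = 0.509).

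CTGF had 846.9 and 875.5 normalised read counts in siCtrl and 756.4, 728.3, 822.1 and 694.0 in siY14, all 4 below siCtrl. The log2 fold change of CTGF in the authors' deposited table was -0.20 (adjusted p = 0.606). AMOTL2 had 6558 and 6502 in siCtrl and 6508, 5995, 6487 and 5967 in siY14, again with b and d lowest, and the authors' deposited table gives AMOTL2 a log2 fold change of -0.07 (adjusted p = 0.944).

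YAP1 had 18265 and 17994 normalised read counts in siCtrl, a mean of 18130, and a siY14 mean of 14962. Its log2 fold change in the authors' deposited table was -0.28 (adjusted p = 0.373). WWTR1 had 416.7 and 377.2 in siCtrl and 345.8, 407.3, 383.7 and 396.2 in siY14, with 3 of the 4 siY14 libraries inside the siCtrl range. The log2 fold change of WWTR1 in the authors' deposited table was -0.05 (adjusted p = 0.964).

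**Figure D3:**
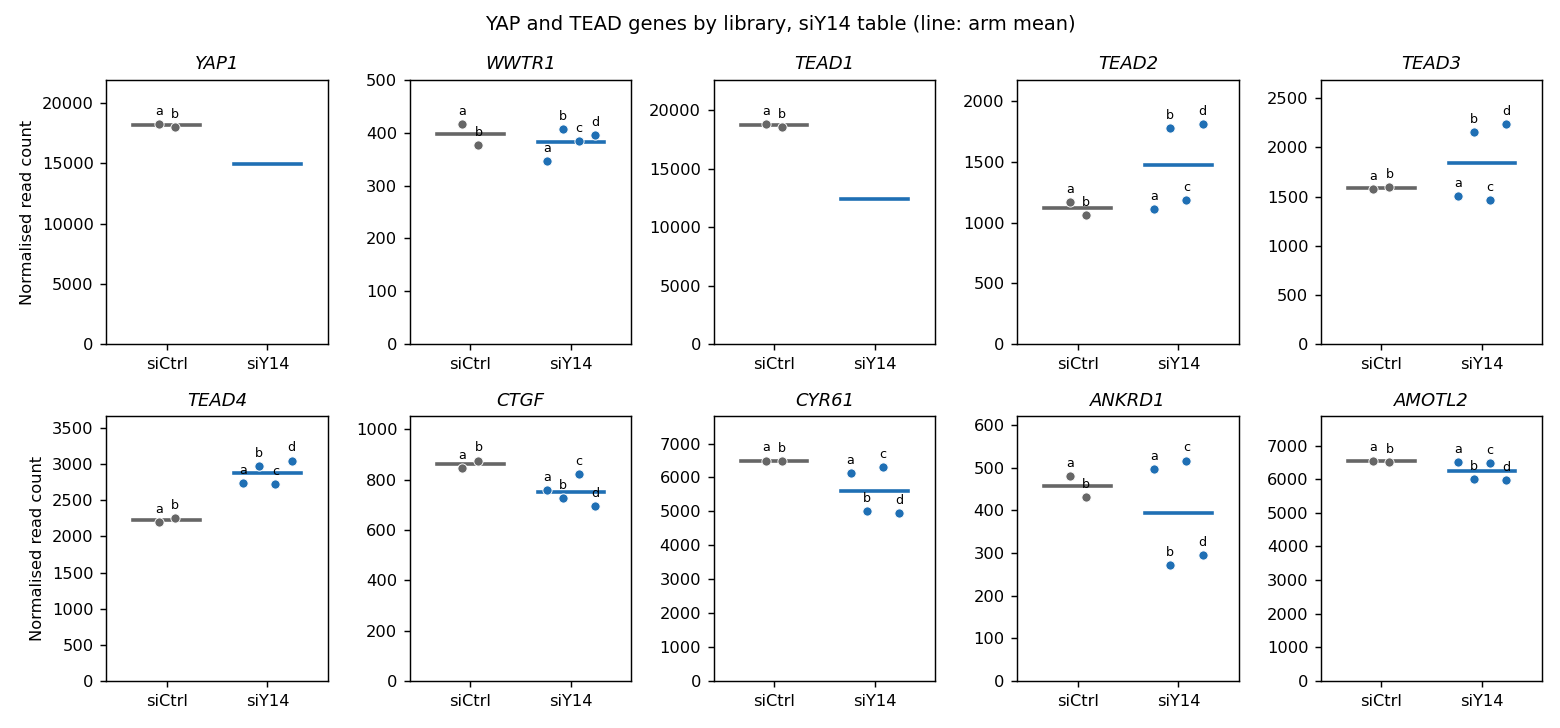
Normalised read counts of the 10 genes in the siCtrl (grey) and siY14 (blue) arms, with 1 point per recovered library, lettered by depth, and a line at the deposited arm mean; each vertical axis starts at 0. Libraries b and d lie above a and c in WWTR1, TEAD2, TEAD3 and TEAD4 and below them in CTGF, CYR61, ANKRD1 and AMOTL2.

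In the limma-voom model 1 of the 8 recovered genes passed under siY14 (TEAD4), against 26.6% of all genes tested. The arms of 3 of the 8 did not overlap (TEAD4, CTGF and CYR61), against 63.4% of all genes. Both shares are below the background. The exact two-sided permutation p of these 3 genes was 0.133, the smallest that 2 libraries against 4 allow. The siY14 libraries deviated in pairs, and whether the 2 libraries of a pair are independent samples is not known. With the pairs summed, limma-voom called 0 of all genes, and 3255 had an unadjusted p under 0.05.

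A joint limma-voom model compared both effects on each gene, as the siSOX9 effect minus the siY14 effect, each against its own siCtrl arm. The knockdowns were done in different experiments and normalised separately. A difference between knockdowns and one between experiments can therefore not be told apart. In that model 3 of the 8 genes passed, against 20.2% of all genes tested. CTGF differed by 0.72 ± 0.18 (SE, log2; adjusted p = 0.0154), and CYR61 by 0.72 ± 0.23 (adjusted p = 0.0463). Both had higher means than siCtrl under siSOX9 and lower means under siY14. TEAD4 differed by -0.55 ± 0.17 (adjusted p = 0.0374), with a lower mean than siCtrl under siSOX9 and a higher mean under siY14. ANKRD1 differed by -0.76 ± 0.41, which did not pass (adjusted p = 0.2). With the siY14 pairs summed only CTGF passed (adjusted p = 0.0387). Without either siCtrl library of experiment 3 none of the 8 passed, with adjusted p of at least 0.0668.

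**Figure D4:**
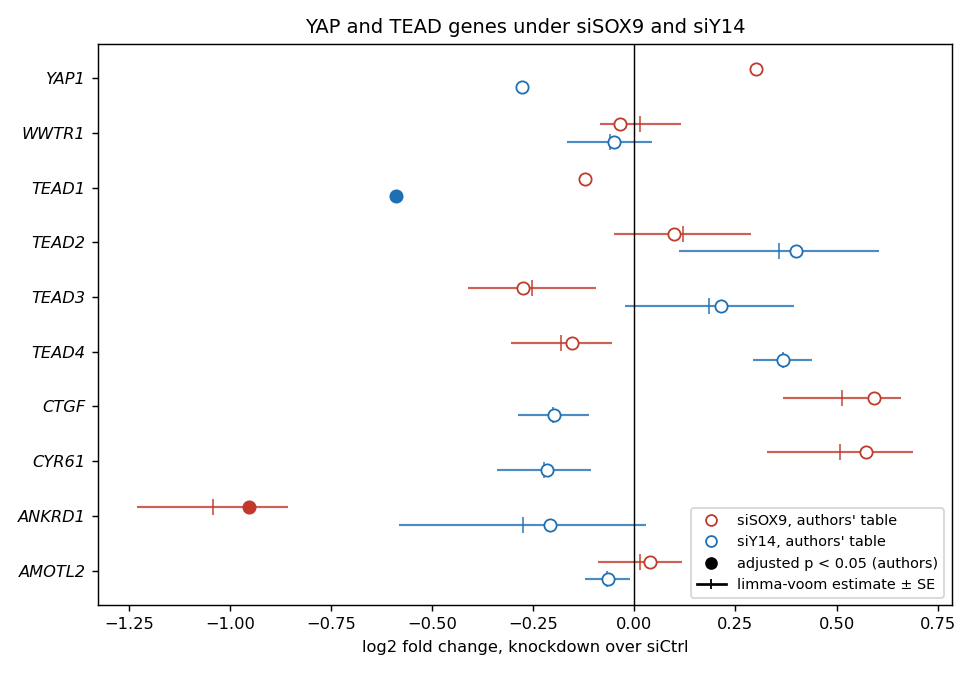
Log2 fold changes of the 10 genes under siSOX9 (red) and siY14 (blue), with circles from the authors' deposited tables, filled where the authors' adjusted p is under 0.05, and ticks with bars for the limma-voom estimate ± SE of the 8 recovered genes. ANKRD1 under siSOX9 (-0.95) and TEAD1 under siY14 (-0.59) are the filled circles, and CTGF and CYR61 lie right of 0 under siSOX9 and left of it under siY14.

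The genes with the most similar pair of deposited log2 fold changes were looked up among those that passed in the same table. Nearest to ANKRD1, among 550 genes that passed under siSOX9 with a mean of at least 100, were SRGAP1 (-0.94 under siSOX9 and -0.22 under siY14), HSPG2 (-0.98 and -0.24) and FAM129A (-1.002 and -0.17). Nearest to TEAD1, among 1499 genes that passed under siY14, were TTC39A (-0.12 and -0.59), TJP1 (-0.12 and -0.60) and SPPL2A (-0.12 and -0.58). Likeness was the distance between 2 pairs of values, over 2 comparisons only.

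The rest of the pathway was read from 7 gene lists in the authors' deposited tables. Under siSOX9, 4 listed genes passed, and under siY14, 11 did. The authors' siY14 arm pools both Y14 siRNAs, and the recovered siY14 libraries deviated in pairs that may not be independent samples. Of all genes with reads, 1.19% were called higher and 2.27% lower under siSOX9, and 3.81% and 5.35% under siY14. In the Hippo kinase cassette, which includes the MST and LATS kinases and their scaffolds, 1 of 14 fell under siSOX9 and 2 of 14 under siY14, with none called higher. WWC2, a KIBRA family scaffold that activates LATS, fell in both deposited tables, from 591.1 to 308.8 normalised read counts under siSOX9 (log2 fold change -0.94, adjusted p = 1.29e-04) and from 1330 to 795.4 under siY14 (-0.74, adjusted p = 0.00166). MOB1A, the LATS coactivator, went from 8110 to 4889 under siY14 (-0.73, adjusted p = 0.046). The median log2 fold change of the list was 0.01 under siSOX9 and -0.27 under siY14.

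Of the YAP and TEAD binding partners, 0 of 11 passed under siSOX9 and 1 of 10 under siY14. That gene was VGLL3, a vestigial-like cofactor that binds TEAD factors, which went from 744.5 to 356.9 normalised read counts in the authors' deposited table (log2 fold change -1.06, adjusted p = 0.00601). Of the STRIPAK genes, whose phosphatase complex opposes the Hippo kinases, 0 of 9 passed under siSOX9 and 1 of 9 under siY14, namely STRN3, a striatin scaffold (-0.88, adjusted p = 2.42e-04). The medians for the partners were 0.05 under siSOX9 and -0.14 under siY14. Those for STRIPAK were 0.06 under siSOX9 and -0.13 under siY14.

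Among conserved YAP and TEAD targets other than the 4 described, 1 of 17 passed under siSOX9 and 4 of 18 under siY14. MYOF, the membrane repair protein myoferlin, fell from 21575 to 14206 normalised read counts under siSOX9 in the authors' deposited table (log2 fold change -0.60, adjusted p = 0.0106). Under siY14, F3, which encodes tissue factor, fell from 5581 to 1900 (-1.55, adjusted p = 5.6e-04), and AXL, a receptor tyrosine kinase, from 62.8 to 28.8 (-1.12, adjusted p = 0.0171). NT5E, the ectonucleotidase CD73, also fell under siY14 (-0.69, adjusted p = 0.0423), but did not pass in limma-voom (adjusted p = 0.0546). FJX1, a homolog of a fly planar polarity gene, was the exception and rose from 474.8 to 757.5 (0.67, adjusted p = 0.0103). The medians of the list were -0.10 under siSOX9 and -0.22 under siY14.

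Of the AP-1 genes, which often bind beside TEAD factors, 1 of 9 passed in each deposited table. FOS rose from 164.7 to 373.9 normalised read counts under siSOX9 (log2 fold change 1.18, adjusted p = 4.78e-05), and ATF3 fell under siY14 (-0.61, adjusted p = 0.00915). Of the SRF and MRTF genes, which share cytoskeletal targets with YAP, VCL (vinculin) fell under siSOX9 (-0.58, adjusted p = 0.0204), 1 of 11. Under siY14 EGR1, an immediate early factor, fell from 5507 to 2334 (-1.24, adjusted p = 1.69e-10) and TAGLN (transgelin) rose from 89.1 to 152.6 (0.78, adjusted p = 0.0325), 2 of 12. In the CCN family, to which CTGF and CYR61 belong, 0 of 5 passed under siSOX9 and 0 of 6 under siY14, and CYR61 had the highest mean. Median log2 fold changes under siSOX9 and siY14 were -0.04 and -0.05 for AP-1, and 0.19 and -0.21 for SRF and MRTF genes. The 3 CCN genes with a mean of at least 10 had medians of 0.57 and -0.22.

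**Figure D5:**
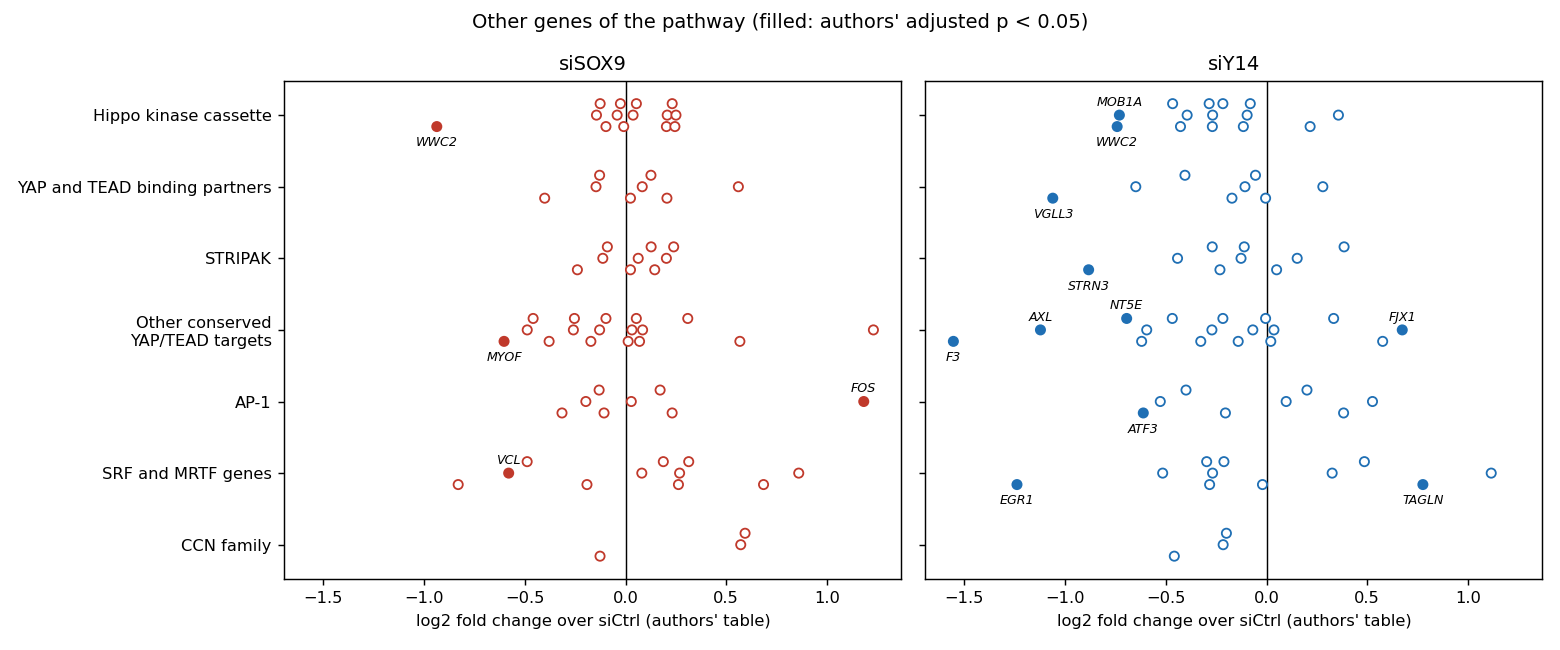
Log2 fold changes in the authors' deposited tables for listed genes with a mean of the arm means of at least 10, by list, under siSOX9 (left) and siY14 (right); filled and named where the authors' adjusted p is under 0.05. WWC2 is filled on both sides, and F3 at -1.55 lies farthest from 0 among the named genes.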

How the data were processed

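RNA-seq of 13 DLD-1 samples was used. The submitters' processing notes name genome build hg19 and, among the tools the authors used, DESeq, HTSeq, SAMtools, TopHat2, HISAT2 and Bowtie. No source used here gives their versions, their settings or whether reads were counted by strand. Per the file headers, each of the 2 deposited tables holds a mean normalised read count over all libraries and per arm, a signal made by dividing counts by a size factor. The deposited tables also hold the ratio of the arm means (the fold change) on a linear and a log2 scale, and the authors' raw and adjusted p-value. A deposited adjusted p under 0.05 was the main threshold. There were 0 unused columns of per-sample values.

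The authors' deposited means carry 15 digits, and each is a mean of whole reads divided by a size factor per library. The size factors were found from the lowest means, where many genes share the value of 1 read. The reads of single libraries were recovered where 1 solution held over 0.99 of the probability, which gave 86.66% of the 18747 genes with reads in the table of siSOX9 and 89.5% of 17706 in that of siY14. High means were recovered less often, and means above 20000 were not tried. Solutions were preferred the closer they lay to the spread seen in other genes, and these settings were tuned while solutions for the 10 genes were in view, so SDs of high means can be too small. Tested on simulated data, 2052 of 2400 arm means were recovered with 0 wrong for siSOX9, and 2186 of 2400 with 1 wrong for siY14. The simulated library ratios came from the same genes that set the preferred spread, so genes that spread otherwise were not tested.

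The test of recovered reads was limma-voom (limma 3.58.1, R 4.3.3), run on genes whose mean reached 10. Library sizes followed the authors' size factors, as recovered, and p-values were adjusted by Benjamini-Hochberg over all genes tested. On simulated data for the siSOX9 design, calls were made for 102 of 107 genes with a 2-fold change and 90 of 93 with a 4-fold change among 11136, with 15 false calls of 207. For the siY14 design these were 101 of 109 and 89 of 91 among 11582, with 8 false calls of 198. Both simulations drew independent libraries with the same spread setting for all genes, whereas some recovered libraries deviated together. These rates may therefore not hold for the real libraries. Changes under 2-fold, such as those of CTGF under siSOX9 and TEAD4 under siY14, were not simulated. Exact permutation tests were two-sided over libraries.

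The 10 genes, the 7 lists and the marker lists were chosen with earlier results of these data known. Named besides the 10 genes were listed genes past the authors' threshold in either table, or the gene with the highest mean where none passed, and the 3 genes nearest to each called gene. Alternatives covered pseudocounts, centring, filters, scaling and leaving out each library. The depth class term, the fits without the deepest libraries and with summed siY14 pairs, the unfiltered fits and the alternatives for the difference between knockdowns were added after seeing the data. Promoter windows came from RefSeq (GRCh38.p14) and exon lengths from GENCODE v29, neither being the authors' annotation.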

Additional observations from a re-analysis of the deposited data

Results flagged for a closer look

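For 3 of the 8 recovered genes the effect of siSOX9 and the effect of siY14, each on the log2 scale against its own siCtrl arm, differed in the joint limma-voom model, against 20.2% of all genes tested. The difference, siSOX9 minus siY14, was 0.72 for CTGF (adjusted p = 0.0154), 0.72 for CYR61 (adjusted p = 0.0463) and -0.55 for TEAD4 (adjusted p = 0.0374). With the siY14 pairs summed only CTGF passed. When each of the 13 libraries was left out in turn, CTGF did not pass in 2 fits (adjusted p 0.0134 to 0.069 over all 13), CYR61 in 10 (0.00344 to 0.157) and TEAD4 in 6 (0.0275 to 0.162). CTGF lay above every siCtrl library in 4 of 4 siSOX9 libraries and below every siCtrl library in 4 of 4 siY14 libraries. CYR61 did so in 3 of 4 and 4 of 4. TEAD4 lay above both siCtrl libraries in 4 of 4 siY14 libraries and below all siCtrl libraries in 1 of 4 siSOX9 libraries. Arms without overlap were found for 27.8% of all genes under siSOX9 and 63.4% under siY14. The knockdowns were done in different experiments and normalised in different tables, so a difference between knockdowns and one between experiments cannot be told apart.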

How the results depend on the processing

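No paired analysis was possible because the recovered libraries carry no replicate number and the deposited columns are arm means; the depth class term, a block found from the data, is given in its place. The count of the 10 genes past the threshold under siSOX9 was 1 in the authors' deposited table and 2 among 8 recovered genes in limma-voom. Without CTGF and CYR61, the 7 lists held 4 calls under siSOX9 and 11 under siY14 in the authors' deposited tables. In limma-voom they held 10 and 18. The calls of MYOF, VCL and MOB1A had no limma-voom value, and NT5E under siY14 did not pass there (adjusted p = 0.0546). Over all genes the authors' test called 3.47% under siSOX9 and 9.16% under siY14, and limma-voom called 16% and 26.6%. More calls in the lists thus came with more calls over all genes. Under siY14 both tests called 1 of the 10 genes, TEAD1 by the authors and TEAD4 by limma-voom, which did not have TEAD1. The limma-voom count under siSOX9 (2) was 1 with no filter on low means, 5 with depth class as a term, 4 without the deepest library of each arm, and 1 to 3 when each library was left out. In all, limma-voom called 1784 genes under siSOX9, 5399 with depth class as a term and 3360 without the deepest libraries. Under siY14 the limma-voom count (1) was 0 with the pairs summed and 0 to 1 when each library was left out. In all it called 3086 genes, 0 with the pairs summed, 1 without siCtrl a and 3 without siCtrl b, the lone siCtrl library being assumed to vary like the others. The count for the difference between knockdowns (3) was 1 with the pairs summed and 0 to 3 when each library was left out. Signs turned only for estimates near 0. WWTR1 under siSOX9 was -0.03 in the authors' deposited table, 0.0152 in limma-voom, -0.0847 without the deepest libraries and -0.0607 to 0.0609 when each library was left out. Leaving out each library gave -0.10 to 0.28 for TEAD2 and -0.0347 to 0.12 for AMOTL2 under siSOX9, -0.13 to 0.0171 for WWTR1 under siY14 and -0.00683 to 0.14 for WWTR1 in the difference. AMOTL2 under siSOX9 was -0.0143 with depth class as a term. The cause of these changes was not tested. Of all values and counts recomputed, 336 were labelled unchanged, 13 stronger, 47 weaker and 12 turned sign. Stronger or weaker means a call gained or lost for a gene, or a clearly larger or smaller count of calls. A count that moved little was labelled unchanged. Pseudocounts and centring carried over the deposited call, so only the sign could change there. Depth limits ANKRD1 most, with 23 reads in its lowest siSOX9 library. The 2 siCtrl libraries of experiment 3 limit every siY14 test.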

Other observations

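The siCtrl arms themselves differed between experiments in these genes. In counts per M (CPM) of the arm mean, ANKRD1 had 1.58 in siCtrl of experiments 1 and 2 and 7.59 in siCtrl of experiment 3, a ratio of 4.82. CTGF had 3.80 and 14.3 (ratio 3.77), and CYR61 had 29.8 and 107.9 (ratio 3.62). TEAD1 had a ratio of 1.85, YAP1 1.69, WWTR1 1.27 and AMOTL2 1.12, while TEAD4 (0.772), TEAD3 (0.663) and TEAD2 (0.653) were lower in experiment 3. Over the 13186 genes compared the median ratio was 0.937, and 53 of them (0.402%) had a ratio above 3, a limit set after these values were seen. The tables were normalised separately, so experiment, sequencing and processing cannot be told apart here, and no test was made.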
